A study of Arabidopsis thaliana with 6 samples.

Results

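The aquaporin family of Arabidopsis thaliana was followed in roots of seedlings aged 8 days, under phosphate deficiency and in the phl2 mutant. The 35 members were chosen by locus identifier as the genes of the family, and all 35 were found among the 33602 genes of the deposited table. They comprised 5 PIP1, 8 PIP2, 10 TIP, 9 NIP and 3 SIP genes. Members are written with a hyphen (PIP1-1), a form also in use for PIP1;1, except BETA-TIP, which carries its RefSeq symbol.

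Polyadenylated RNA was sequenced from whole roots of 3 groups, all in the Col-0 background, with strand-specific dUTP libraries. They were the phl2 mutant on medium without phosphate (phl2 P-, replicates 5 and 6), wild type on the same kind of medium (WT P-, replicates 3 and 4), and wild type on medium with phosphate (WT P+, replicates 1 and 2). The labels give the genotype only as phl2, with no allele, and say nothing of whether replicates were separate cultures, and the p-values below therefore reflect only how far these libraries spread, which could be a technical spread. No phl2 roots grown with phosphate were analysed here, and a general difference of phl2 and one in its response to deficiency cannot be told apart. In RNA from whole roots, fewer cells of a type and less RNA per cell cannot be told apart either.

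Aquaporins are membrane channels that work as tetramers, each subunit with its own pore, and most carry paired Asn-Pro-Ala motifs that meet in the middle of the pore. The PIPs of the plasma membrane carry much of the water that crosses root cells, and PIP1 proteins generally need PIP2 partners to reach that membrane. The TIPs sit in the vacuolar membrane, where some also pass ammonia or urea. The NIPs, named after nodulin 26 of soybean, pass small uncharged solutes such as boric acid, arsenite and lactic acid, and the SIPs are found in the endoplasmic reticulum.

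Values are RPKM, meaning reads relative to gene length and library size, so that levels can be set side by side between genes. The authors' divisors came to about 9420000 to 12800000 reads per library, and the reads behind the whole table to about 616000 to 913000, so 1 RPKM in a gene of this family rests on few reads. The counter's strand setting is not given in the sources used here. With so few of the divisor's reads in the table, it is not settled whether the values count reads of a gene's own strand or of the opposite one, and every level below carries that limit. The phl2 columns held equal reads in 81.0% of 21237 genes once their ratio of 1.156 was divided out, within a relative tolerance of 0.001, against at most 9.62% for any other pair of columns. They were averaged and counted as 1 sample, and both columns are printed below only to show their values. Among the 31 members that either column lists above 0, 22 had the same reads in both.

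Most genes moved together between groups. The median of the 11463 tested genes was higher by 0.33 on the log2(RPKM + 1) scale in WT P- than in WT P+, and differed by -0.48 in phl2 P- against WT P-. Each difference is therefore given as deposited and after rescaling each library by its median ratio over these genes, which brought the medians to 0.005 and -0.01. The 8 root markers, among them the endodermal regulator SCR and the beta-glucosidase PYK10, summed to 24.8 to 28.5 RPKM in phl2 P-, 42.6 to 48.4 RPKM in WT P- and 33.9 to 41.8 RPKM in WT P+, with none at 0 in any group. The 5 shoot photosynthesis markers summed to 4.56 to 5.27 RPKM in phl2 P-, 12.6 to 15.9 RPKM in WT P- and 18.7 to 21.5 RPKM in WT P+. The 4 root hair markers summed to 12.1 to 13.8 RPKM in phl2 P-, 18.8 to 21.7 RPKM in WT P- and 4.83 to 6.82 RPKM in WT P+. The 4 vascular markers summed to 5.65 to 6.53 RPKM in phl2 P-, 9.55 to 10.1 RPKM in WT P- and 9.90 to 10.9 RPKM in WT P+. The part of these cell types in the differences below was not tested. PHL2 (AT3G24120), the MYB-type transcription factor that the mutant is named for, was at 1.04 and 0.934 RPKM in phl2 P-, 2.14 and 2.24 RPKM in WT P- and 1.65 and 2.37 RPKM in WT P+ (phl2 P- minus WT P-, -0.68 ± 0.22 on the log2 scale, adjusted p = 0.055 as deposited, and -0.25 ± 0.24, adjusted p = 0.62 rescaled, limma).

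Members of the family were called in both directions in deficient wild type. PIP1-1, PIP2-1, PIP2-2 and PIP2-3, abundant water channels of the plasma membrane, were lower in WT P- than in WT P+, as were the vacuolar channels TIP2-2 and TIP2-3, while TIP1-3, TIP2-1 and the boric acid channel NIP5-1 were higher. As deposited, of the 24 members with at least 1 RPKM in 2 or more libraries, limma called 6 higher and 6 lower in WT P-, against 28.0% and 4.45% of all tested genes. After rescaling it called 3 higher and 12 lower, against 8.10% and 11.7% of all tested genes. The number called higher as deposited was no greater a share than among all genes. The median difference of the 24 was -0.09 as deposited, beside 0.33 over all tested genes, and -0.44 after rescaling, beside 0.005. The family as a whole summed to 150 and 127 RPKM in WT P-, against 185 and 144 RPKM in WT P+, or 0.288% and 0.262% of all RPKM against 0.44% and 0.373%.

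**Figure D1:**
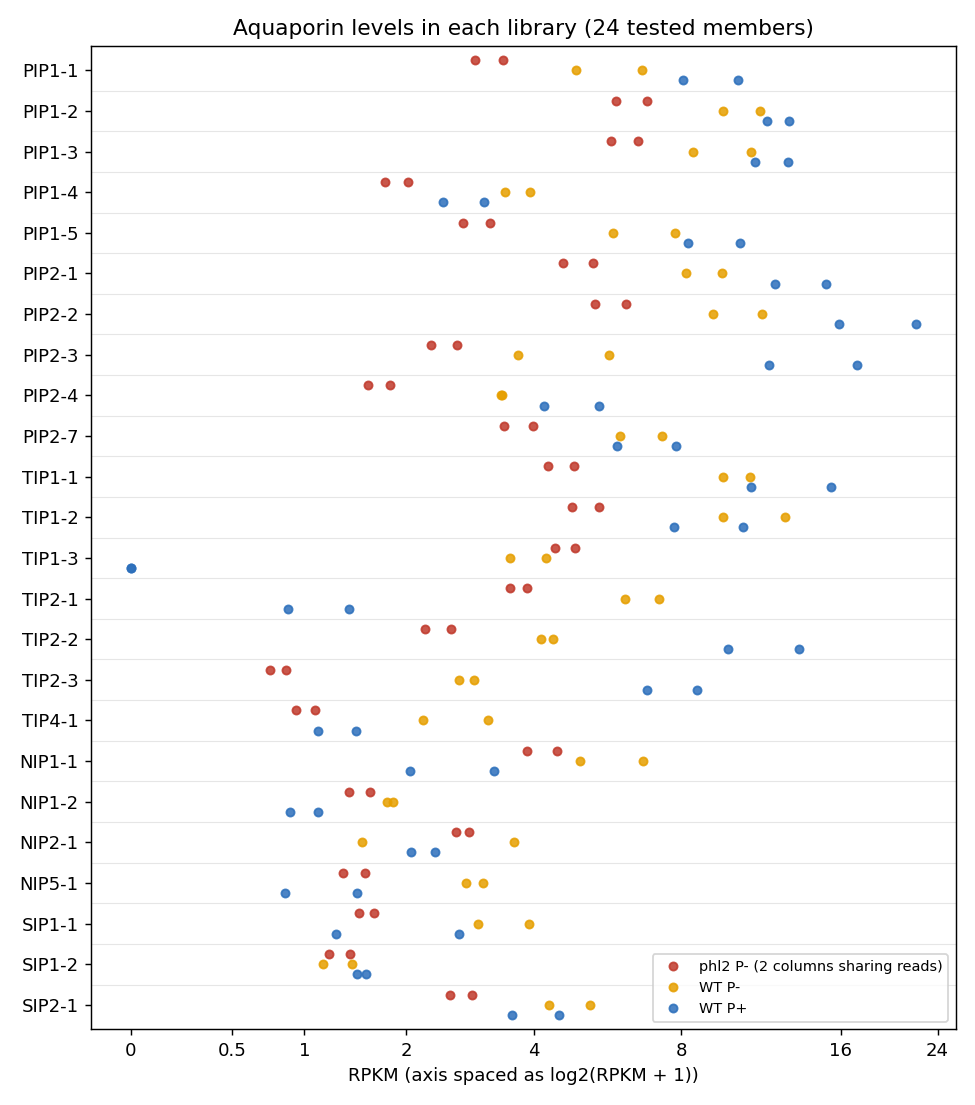
RPKM of the 24 tested members (rows) in each library, on an axis spaced as log2(RPKM + 1). Points are single libraries. For PIP2-2, PIP2-3, TIP2-2 and TIP2-3 both WT P+ points lie right of both WT P- points, and for TIP1-3 and TIP2-1 they lie left of them.

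PIP2-2 (AT2G37170) and PIP2-3 (AT2G37180), PIP2 water channels of the root plasma membrane, are neighbours on chromosome 2 that point away from each other, with 2612 bp between them. PIP2-2 lies on the minus strand at 15613368 to 15615022 and PIP2-3 on the plus strand at 15617635 to 15619155 (TAIR10.1). Their coding sequences were 94.8% identical over the aligned bases, with 45 differing bases and a longest identical run of 242 bases. No other pair of members was above 88.0%. Reads may thus have been divided between these genes, and the values of each are uncertain to that extent. The first 120 aligned coding bases are shown, and hold 12 of the 45 positions that can tell their reads apart. The 12 differing bases are in capitals, and the stretch is coding bases 1 to 120 of PIP2-3 and, in the longest annotated PIP2-2 model, 130 to 249.
PIP2-2: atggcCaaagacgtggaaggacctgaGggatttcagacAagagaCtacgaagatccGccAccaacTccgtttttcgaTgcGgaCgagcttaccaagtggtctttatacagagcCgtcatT
PIP2-3: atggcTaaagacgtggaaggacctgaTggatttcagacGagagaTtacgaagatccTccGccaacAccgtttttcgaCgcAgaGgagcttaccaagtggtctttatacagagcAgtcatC

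PIP2-2 was at 11.4 and 9.22 RPKM in WT P-, against 22.0 and 15.9 RPKM in WT P+. Its highest WT P- library was below its lowest WT P+ library, and the mean was 0.545 times that with phosphate. The difference was -0.81 ± 0.18 on the log2 scale as deposited (adjusted p = 0.013, limma) and -1.27 ± 0.13 after rescaling (adjusted p = 0.0022), and as deposited it was not called without replicate 4. PIP2-3 was at 5.74 and 3.68 RPKM in WT P-, against 17.1 and 11.8 RPKM in WT P+. The groups were well apart, and the mean was 0.326 times that with phosphate. Its difference was -1.44 ± 0.22 as deposited (adjusted p = 0.0031) and -1.86 ± 0.17 after rescaling (adjusted p = 0.0016), and it was called in all 6 fits that left out 1 column, with either scaling. The ratio of PIP2-3 to PIP2-2 within a library, which no scaling of libraries can change, was 0.503 and 0.40 in WT P-, against 0.78 and 0.741 in WT P+.

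PIP2-1 (AT3G53420), a water channel that is also the usual partner of PIP1 proteins, was at 9.58 and 8.16 RPKM in WT P-, against 15.0 and 12.1 RPKM in WT P+. The groups did not overlap. The difference was -0.56 ± 0.15 as deposited (adjusted p = 0.028) and -1.01 ± 0.11 after rescaling (adjusted p = 0.0027), and it was not called without replicate 1, 3 or 4 as deposited, nor without replicate 4 after rescaling. PIP2-4 (AT5G60660) was at 3.40 and 3.38 RPKM in WT P-, against 5.49 and 4.21 RPKM in WT P+, and was called lower only after rescaling (-0.79 ± 0.12, adjusted p = 0.0066). PIP2-7 (AT4G35100) was at 7.32 and 6.03 RPKM in WT P-, against 7.80 and 5.95 RPKM in WT P+. These groups overlapped as deposited (-0.03 ± 0.17, adjusted p = 0.89), and it was called lower after rescaling only (-0.46 ± 0.12, adjusted p = 0.036). Without replicate 3 or 4 neither PIP2-4 nor PIP2-7 was called after rescaling.

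The remaining PIP2 genes were at low levels and stayed below the level for testing. PIP2-5 (AT3G54820) was at 0.649 and 0.897 RPKM in WT P-, or about 12 and 17 reads. In WT P+ it was at 0.086 RPKM and listed at 0, or about 1 and 0 reads. PIP2-5 thus went the other way from the abundant PIP2 genes in these libraries, with no test. PIP2-6 (AT2G39010) was at 0.16 and 0.295 RPKM in WT P-, against 0.171 and 0.161 RPKM in WT P+. PIP2-8 (AT2G16850) was at 0.602 and 0.713 RPKM in WT P-, against 0.549 and 0.431 RPKM in WT P+.

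All 5 PIP1 genes were tested, and 4 of them were called lower in WT P- after rescaling, against 11.7% of all tested genes. PIP1-1 (AT3G61430) was at 6.68 and 4.91 RPKM in WT P-, against 10.3 and 8.06 RPKM in WT P+. The groups did not overlap, and the difference was called as deposited (-0.59 ± 0.18, adjusted p = 0.039) and after rescaling (-1.02 ± 0.13, adjusted p = 0.0041). It was not called without replicate 1, 2, 3 or 4 as deposited, nor without replicate 4 after rescaling. PIP1-2 (AT2G45960) was at 11.3 and 9.63 RPKM in WT P-, against 12.8 and 11.65 RPKM in WT P+. PIP1-3 (AT1G01620) was at 10.9 and 8.43 RPKM in WT P-, against 12.75 and 11.1 RPKM in WT P+. PIP1-5 (AT4G23400) was at 7.77 and 5.86 RPKM in WT P-, against 10.35 and 8.24 RPKM in WT P+. Each of these 3 was lower in both deficient libraries by a small margin. They were called after rescaling only (-0.67 ± 0.11, -0.74 ± 0.12 and -0.84 ± 0.12, adjusted p = 0.011, 0.0095 and 0.0066), and not when replicate 3 or 4 was left out.

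PIP1-4 (AT4G00430) stood apart from the other PIP1 genes. It was at 3.92 and 3.46 RPKM in WT P-, against 3.10 and 2.47 RPKM in WT P+, higher in both deficient libraries. It was called with neither scaling (0.31 ± 0.16, adjusted p = 0.16 as deposited, and -0.07 ± 0.11, adjusted p = 0.7 rescaled). The ratio of PIP1-4 to PIP1-3, whose coding sequences are 85.6% identical, was 0.359 and 0.41 in WT P-, against 0.243 and 0.223 in WT P+.

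**Figure D2:**
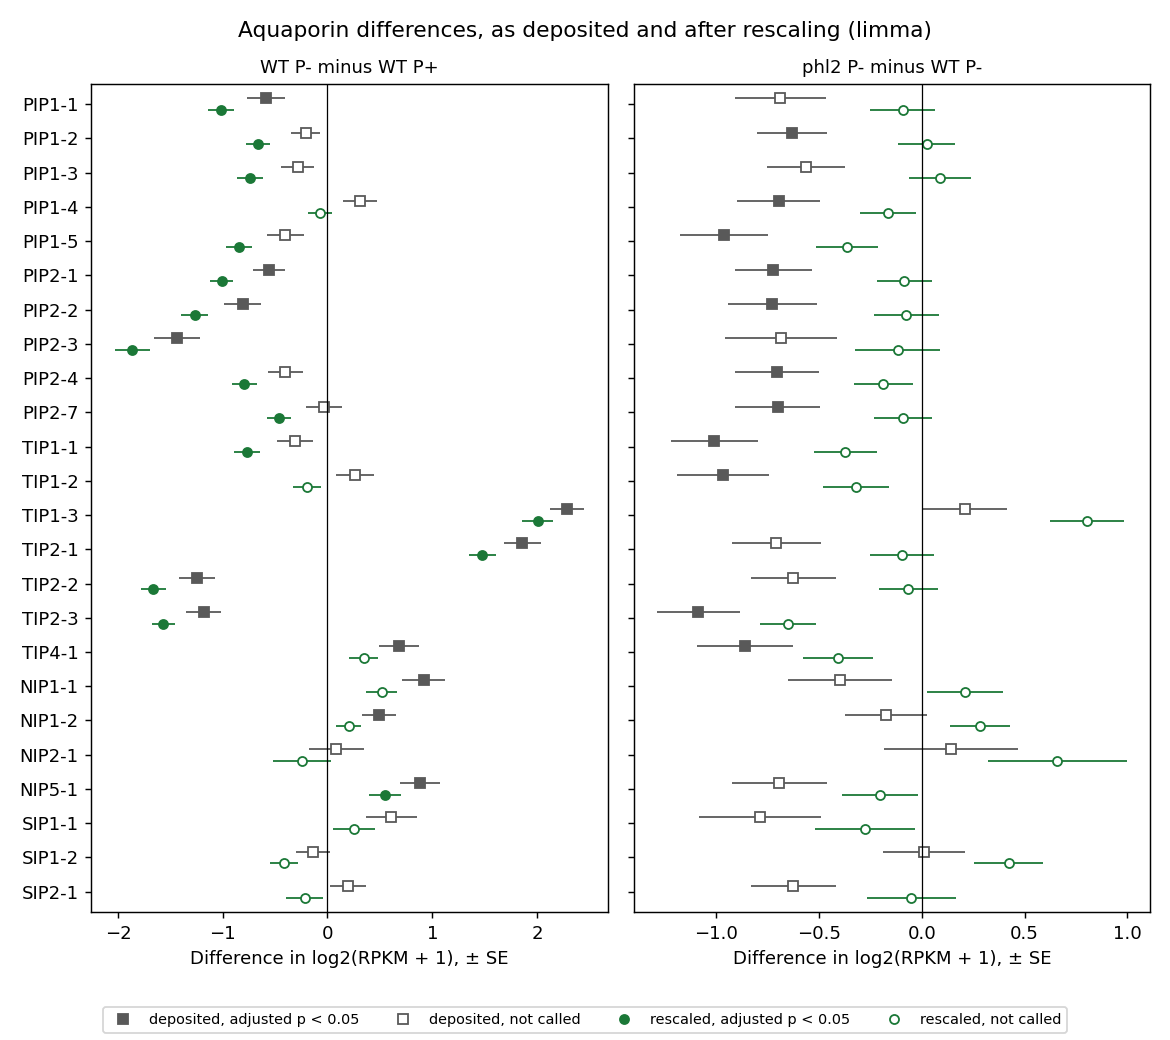
Differences in log2(RPKM + 1) with standard errors from limma for the 24 tested members, WT P- minus WT P+ (left) and phl2 P- minus WT P- (right), as deposited (squares) and after rescaling (circles). Filled symbols are called at an adjusted p under 0.05, and in the right panel 11 squares and 0 circles are filled. The comparisons share the WT P- libraries.

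The vacuolar TIPs held the strongest rises among the tested members and 2 of the 3 strongest falls, beside PIP2-3. TIP2-2 (AT4G17340, chromosome 4, 9698940 to 9700472, plus strand) and TIP2-3 (AT5G47450, chromosome 5, 19248249 to 19249622, minus strand) are water and ammonia channels known mainly from roots. TIP2-2 was at 4.38 and 4.13 RPKM in WT P-, against 13.4 and 9.82 RPKM in WT P+. TIP2-3 was at 2.94 and 2.71 RPKM in WT P-, against 8.59 and 6.85 RPKM in WT P+. The groups of both genes were far apart, with means 0.367 and 0.366 times those with phosphate. Their differences were -1.25 ± 0.17 and -1.18 ± 0.16 as deposited (adjusted p = 0.0017 and 0.0019) and -1.66 ± 0.12 and -1.57 ± 0.11 after rescaling (adjusted p = 0.00087 for each). Both were called in all 6 fits that left out 1 column, with either scaling.

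TIP2-1 (AT3G16240), a close relative of TIP2-2 that also passes ammonia, went the opposite way. It was at 7.23 and 6.18 RPKM in WT P-, against 1.39 and 0.874 RPKM in WT P+, or 5.92 times as high on average. The difference was 1.86 ± 0.18 as deposited (adjusted p = 0.00036) and 1.48 ± 0.13 after rescaling (adjusted p = 0.0014), called in all 6 fits that left out 1 column. The ratio of TIP2-1 to TIP2-2 within a library was 1.65 and 1.50 in WT P-, against 0.104 and 0.089 in WT P+. In deficient wild type TIP2-1 thus stood above TIP2-2, and with phosphate far below it. Of the exonic bases of TIP2-1, 14.0% lie opposite to exons of other genes, and reads of the strands may not be told apart there. No exon of TIP2-2 or TIP2-3 does.

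TIP1-3 (AT4G01470, chromosome 4, 624786 to 625885, minus strand), a tonoplast water channel best known from pollen, was listed at 0 in both WT P+ libraries. It was at 3.55 and 4.24 RPKM in WT P-, or about 39 and 51 reads. The difference on the log2(RPKM + 1) scale was 2.29 ± 0.17 as deposited (adjusted p = 1.0e-04) and 2.005 ± 0.15 after rescaling (adjusted p = 0.00093), a size that depends on the pseudocount. It was tested only because of its levels without phosphate, since it had none with phosphate. None of its exons lies opposite to another gene's. Before its start, 183 bp separate it from PPa5 (AT4G01480), which encodes a soluble pyrophosphatase and runs in the other direction. PPa5 was at 6.08 and 5.16 RPKM in WT P-, against 2.78 and 1.84 RPKM in WT P+ (1.01 ± 0.18, adjusted p = 0.0063 as deposited, and 0.61 ± 0.13, adjusted p = 0.022 rescaled). It was named after its values were seen. The stretch between these starts, chr4:625886-626068 of TAIR10.1 read on the minus strand towards TIP1-3, is shown because both genes were higher in WT P-.
TIP1-3 to PPa5 intergenic: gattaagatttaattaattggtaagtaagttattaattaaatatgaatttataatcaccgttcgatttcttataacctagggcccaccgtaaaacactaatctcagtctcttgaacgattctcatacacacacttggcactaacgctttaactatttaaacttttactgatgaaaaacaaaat

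The other measured TIPs changed less. TIP1-1 (AT2G36830) and TIP1-2 (AT3G26520) are the main water channels of the vacuole in vegetative tissue. TIP1-1 was at 10.8 and 9.63 RPKM in WT P-, against 15.3 and 10.9 RPKM in WT P+, and was called lower after rescaling only (-0.77 ± 0.12, adjusted p = 0.0091), not when replicate 3 or 4 was left out. TIP1-2 was at 12.6 and 9.64 RPKM in WT P-, against 10.5 and 7.75 RPKM in WT P+, with overlapping groups and no call. Their ratio, TIP1-2 to TIP1-1, was 1.17 and 1.0 in WT P-, against 0.686 and 0.713 in WT P+. TIP4-1 (AT2G25810), known from roots, was at 3.16 and 2.21 RPKM in WT P-, against 1.46 and 1.11 RPKM in WT P+. It was called higher as deposited (0.68 ± 0.19, adjusted p = 0.03), though not without replicate 2, 3 or 4, and not after rescaling (0.35 ± 0.14, adjusted p = 0.13). The seed channels TIP3-1 (AT1G73190) and BETA-TIP (AT1G17810) were at 0.592 RPKM or less in every library, and the pollen channel TIP5-1 (AT3G47440) at 0.103 RPKM or less. The 3 seed storage markers summed to at most 0.204 RPKM in any library. These 3 TIPs were not tested, and 24.6%, 47.1% and 9.10% of their exons lie opposite to exons of other genes.

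**Figure D3:**
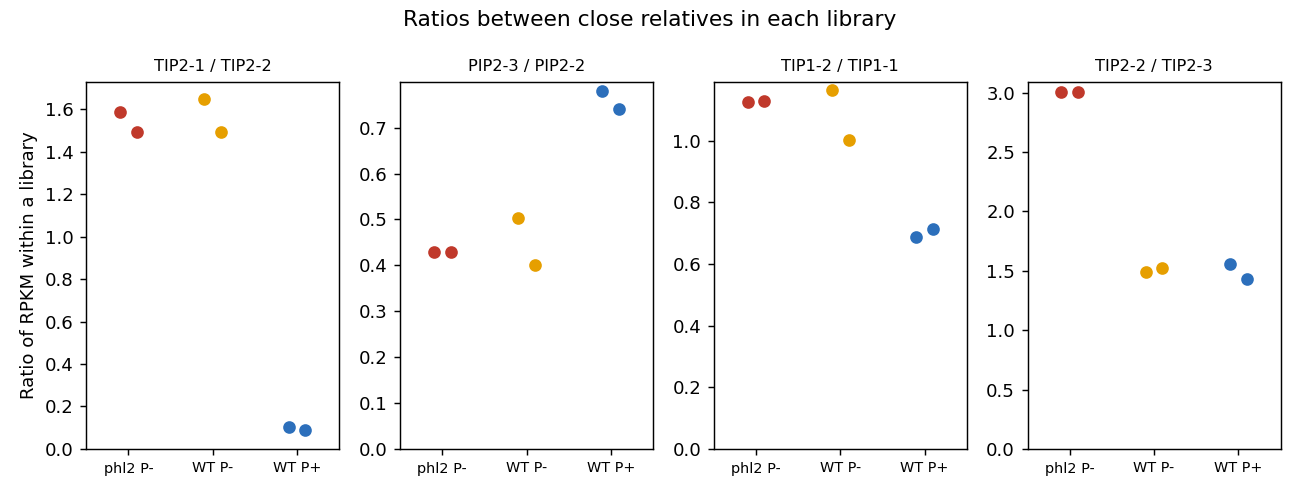
Ratio of the RPKM of close relatives within each library, for 4 pairs, with axes starting at 0. TIP2-1 over TIP2-2 is at or above 1.50 in both WT P- libraries and at or below 0.104 in both WT P+ libraries. TIP2-2 over TIP2-3 is 3.01 in both phl2 P- columns, against 1.43 to 1.56 in the wild-type libraries.

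Of the 9 NIPs, 4 were tested. NIP5-1 (AT4G10380), the boric acid channel of boron uptake in the root, was at 2.82 and 3.08 RPKM in WT P-, against 1.47 and 0.855 RPKM in WT P+. The groups did not overlap, and it was 2.54 times as high on average (0.88 ± 0.19, adjusted p = 0.012 as deposited, and 0.55 ± 0.15, adjusted p = 0.049 rescaled). Neither call held without replicate 2, 3 or 4. The boron exporters of the BOR family ranged from 0 RPKM in every column (BOR6 and BOR7) to 2.52 and 1.56 RPKM in WT P- (BOR2). Of 7 of them 3 were tested and 0 were called with either scaling by limma, with medians of 0.47 as deposited and 0.21 after rescaling. BOR1, the exporter that loads the xylem, was at 1.56 and 1.14 RPKM in WT P-, against 0.755 and 0.64 RPKM in WT P+ (adjusted p = 0.059 and 0.3). NIP6-1 (AT1G80760), the boric acid channel of shoot nodes, was at 0.247 and 0.53 RPKM in WT P-, against 0.088 and 0.248 RPKM in WT P+, untested and with overlapping groups.

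NIP1-1 (AT4G19030), which passes arsenite, was at 6.72 and 5.02 RPKM in WT P-, against 3.26 and 2.05 RPKM in WT P+. The groups did not overlap, and it was called as deposited (0.92 ± 0.20, adjusted p = 0.014) and not after rescaling (0.52 ± 0.15, adjusted p = 0.059). Without replicate 2 or 3 it was not called as deposited. Its close relative NIP1-2 (AT4G18910), known in the transport of aluminium malate, was at 1.85 and 1.78 RPKM in WT P-, against 1.11 and 0.888 RPKM in WT P+. It was called as deposited (0.49 ± 0.16, adjusted p = 0.049) and not after rescaling (adjusted p = 0.29), nor as deposited without replicate 2, 3 or 4. Their coding sequences are 85.0% identical. NIP3-1 (AT1G31885), another arsenite channel, was at 1.23 and 0.661 RPKM in WT P-, against 0.546 and 0.412 RPKM in WT P+, and was not tested.

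NIP2-1 (AT2G34390), a lactic acid channel induced by lack of oxygen, had the largest standard error of the tested members in this comparison. It was at 1.51 and 3.61 RPKM in WT P-, a span that held both WT P+ values of 2.37 and 2.06 RPKM. Of its exons 61.9% lie opposite to exons of other genes. Of 5 genes known from the response to low oxygen, 3 were tested, and 2 were called higher in WT P- as deposited and 1 after rescaling, against 28.0% and 8.10% of all tested genes. These were HB1, a class 1 haemoglobin (0.80, adjusted p = 0.02 as deposited, and 0.56, adjusted p = 0.062 rescaled) and SUS4, a sucrose synthase (1.16, adjusted p = 0.0027, and 0.92, adjusted p = 0.008). HB1 was tested only through columns without phosphate, at 1.77 and 1.20 RPKM in WT P-, against 0.63 and 0.237 RPKM in WT P+. SUS4 was tested only through WT P-, where it was at 2.06 and 1.60 RPKM, and was below 1 RPKM in all other columns. NIP4-1 (AT5G37810) and NIP7-1 (AT3G06100), known from anthers and pollen, were listed at 0 in every column. NIP4-2 (AT5G37820) was listed at 0 in all wild-type libraries and stood at about 1 read in the phl2 columns.

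The 3 SIPs were all tested and none was called in WT P- against WT P+ with either scaling by limma, while 1 had an unadjusted p under 0.05 in each. SIP1-1 (AT3G04090) was at 3.90 and 3.01 RPKM in WT P-, against 2.70 and 1.27 RPKM in WT P+. SIP1-2 (AT5G18290) was at 1.16 and 1.42 RPKM in WT P-, against 1.56 and 1.47 RPKM in WT P+. SIP2-1 (AT3G56950), of which 13.1% of the exonic length faces another gene's exons, was at 5.25 and 4.31 RPKM in WT P-, against 3.58 and 4.53 RPKM in WT P+. Their differences spanned -0.14 to 0.61 as deposited and -0.41 to 0.25 after rescaling. Without replicate 1, SIP1-1 was called higher with either scaling and SIP2-1 lower after rescaling.

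The make-up of the family shifted accordingly. The PIP2 genes held 25.9% and 25.4% of the aquaporin sum in WT P-, against 36.8% and 35.1% in WT P+. The NIPs held 9.60% and 11.5% in WT P-, against 4.77% and 4.53% in WT P+, and the SIPs 6.88% and 6.86% against 4.23% and 5.06%. The PIP1 share was 27.1% and 25.4% against 26.6% and 28.9%, with overlapping groups. The TIP share was 30.5% and 30.8% in WT P-, against 27.6% and 26.4% in WT P+. These shares do not depend on the scaling of the libraries. In WT P- the highest level was that of TIP1-2 in both libraries, with PIP2-2, PIP1-2 and TIP1-1 next to it, which did not differ from it beyond the spread between libraries. In WT P+ PIP2-2 was the highest in both.

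**Figure D4:**
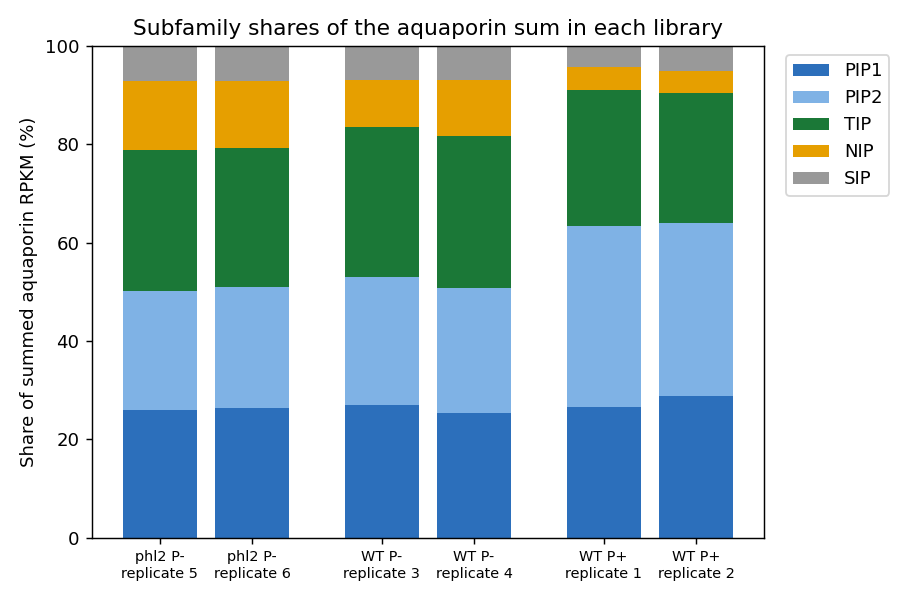
Share of each subfamily in the summed RPKM of the 35 members, 1 bar per library. The PIP2 share lies between 24.1% and 25.9% in the 4 bars without phosphate, and at 36.8% and 35.1% in WT P+.

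A list of genes that act on aquaporins was set beside the family. It was chosen with earlier results of these data known, and 8 of its 13 genes were tested. As deposited, 1 was higher and 1 lower in WT P-, and after rescaling 0 were higher and 2 lower, against 28.0% and 4.45% of all tested genes as deposited and 8.10% and 11.7% after rescaling. RMA2, a membrane-bound ubiquitin ligase of the family known to keep PIP2 proteins from the plasma membrane, was at 1.81 and 1.88 RPKM in WT P-, against 3.62 and 3.41 RPKM in WT P+. It was lower with either scaling (-0.67, adjusted p = 0.016, and -1.0, adjusted p = 0.004). Its relative RMA1, at 0.63 and 0.663 RPKM in WT P- against 1.20 and 1.26 RPKM in WT P+, was called after rescaling (-0.65, adjusted p = 0.02; adjusted p = 0.05 as deposited), and it was tested only through its WT P+ values. SYP121, a syntaxin that delivers PIP2 proteins to the plasma membrane, was at 2.31 and 1.83 RPKM in WT P-, against 1.23 and 1.03 RPKM in WT P+. It was called as deposited (0.52, adjusted p = 0.047) and not after rescaling (0.21, adjusted p = 0.27).

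Promoters were searched for the binding element of PHR1 and its relatives, P1BS, spelled GNATATNC, which reads the same on both strands, in the 300 bases before each annotated start. It was found in 3 of 35 members, or 8.57%, against 6.50% of 27443 protein-coding genes on chromosomes 1 to 5. The members were PIP2-4, TIP2-2 and SIP2-1. The window of TIP2-2, chr4:9698640-9698939 of TAIR10.1 on the plus strand, is shown as that of the only member with the element among the 4 lowest in WT P- relative to WT P+, with the element in capitals. Its first base is 157 bp before the start. A match of these letters is a description of the window only.
TIP2-2 upstream: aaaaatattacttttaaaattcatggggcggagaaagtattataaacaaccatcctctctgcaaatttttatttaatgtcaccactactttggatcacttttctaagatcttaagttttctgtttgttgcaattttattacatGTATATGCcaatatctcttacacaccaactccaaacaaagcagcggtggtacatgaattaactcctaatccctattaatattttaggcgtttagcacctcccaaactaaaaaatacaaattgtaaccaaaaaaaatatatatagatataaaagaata

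In phl2 P- 11 of the 24 tested aquaporins were called lower than in WT P- as deposited, and none was called after rescaling. As deposited, limma called 0 higher and those 11 lower, against 0.288% and 19.5% of all tested genes. After rescaling it called 0 higher and 0 lower, against 0.0698% and 0.0174% of all tested genes, and 4 members had an unadjusted p under 0.05. The median difference of the 24 was -0.69 as deposited, beside -0.48 over all tested genes, and -0.09 after rescaling, beside -0.01. The pseudocount of 1 understates falls of low genes. With a pseudocount of 0.1 the median over all tested genes was -0.71 as deposited. Whether the family fell more than other genes was not tested. With 1 phl2 sample, its variance was taken from the wild-type groups. The 11 calls did not hold without replicate 3 or replicate 4, and fewer were made without replicate 5. More members were called without replicate 1, 2 or 6. Calls over all tested genes rose and fell in the same fits, so these moves were not particular to the family. The median difference over all tested genes was -0.41 without replicate 3, -0.52 without replicate 4, and -0.48 without replicate 1 or replicate 2. Dropping either phl2 column mainly shifts the mutant's values by a common factor, because most genes have the same reads in both.

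As deposited, 7 of the 10 tested PIPs were called lower in phl2 P- than in WT P-, against 19.5% of all tested genes. PIP2-2 was at 5.38 and 6.22 RPKM in phl2 P-, or 56.3% of the 11.4 and 9.22 RPKM in WT P- (-0.73 ± 0.22, adjusted p = 0.049 as deposited, and -0.08 ± 0.16, adjusted p = 0.84 rescaled). PIP2-1 was at 4.61 and 5.32 RPKM, or 56.0% of WT P- (-0.72 ± 0.19, adjusted p = 0.043, and -0.09 ± 0.14, adjusted p = 0.78). PIP2-3 was at 2.32 and 2.68 RPKM, or 53.0% of WT P-, and was not called (adjusted p = 0.083 and 0.81). PIP1-2 was at 5.93 and 6.86 RPKM, or 61.0% of WT P-, called lower as deposited (-0.63 ± 0.17, adjusted p = 0.044) and at 0.02 ± 0.14 after rescaling. The other 6 tested PIPs had 43.8% to 63.9% of their WT P- levels. PIP1-4 was at 1.75 and 2.03 RPKM in phl2 P- and was called lower as deposited (-0.69 ± 0.20, adjusted p = 0.048, and -0.16 ± 0.14, adjusted p = 0.57 rescaled). PIP1-5 was at 2.77 and 3.20 RPKM (-0.96 ± 0.21, adjusted p = 0.04, and -0.36 ± 0.15, adjusted p = 0.27). It had the lowest share of its WT P- level among the tested PIPs. PIP2-4 was at 1.57 and 1.82 RPKM (-0.70 ± 0.20, adjusted p = 0.047, and -0.19 ± 0.14, adjusted p = 0.53). PIP2-7 was at 3.44 and 3.98 RPKM (-0.70 ± 0.21, adjusted p = 0.049, and -0.09 ± 0.14, adjusted p = 0.78). PIP1-1, at 2.95 and 3.41 RPKM, and PIP1-3, at 5.79 and 6.56 RPKM, were not (adjusted p = 0.055 and 0.061). All 10 lay between -0.36 and 0.09 after rescaling.

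TIP2-3 had the lowest share of its wild-type level among the tested members. It was at 0.743 and 0.859 RPKM in phl2 P-, about 11 reads, against 2.94 and 2.71 RPKM in WT P-, or 28.4%. TIP2-3 was tested only through its wild-type values, since both phl2 columns were below 1 RPKM. The difference was -1.09 ± 0.20 as deposited (adjusted p = 0.04) and -0.65 ± 0.14 after rescaling (adjusted p = 0.14), and the rescaled one was called when replicate 1 or replicate 2 was left out. The ratio of TIP2-2 to TIP2-3 was 3.01 in both phl2 columns, against 1.49 and 1.53 in WT P-, and 1.56 and 1.43 in WT P+. TIP2-2 itself was at 2.24 and 2.58 RPKM in phl2 P-, or 56.6% of WT P- (adjusted p = 0.058 and 0.85). TIP1-1, at 4.28 and 4.86 RPKM, and TIP1-2, at 4.81 and 5.49 RPKM, had 44.7% and 46.3% of their WT P- levels and were called lower as deposited (-1.01 ± 0.21 and -0.97 ± 0.22, adjusted p = 0.04 for each), but not after rescaling (adjusted p = 0.26 and 0.34). TIP4-1 was at 0.938 and 1.08 RPKM, or 37.7% of WT P- (-0.86 ± 0.23, adjusted p = 0.044, and -0.41 ± 0.17, adjusted p = 0.27).

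None of the 3 channels called higher in WT P- with either scaling was called in phl2 P-, and they were not tested against each other there. The 10 tested PIPs were at 43.8% to 63.9% of their WT P- levels in phl2 P-, and NIP2-1 and SIP1-2 at 108% and 101%. TIP1-3 was at 4.43 and 4.88 RPKM in phl2 P-, or 119.5% of its WT P- level. Its difference was 0.21 ± 0.20 as deposited (adjusted p = 0.4) and 0.80 ± 0.18 after rescaling (adjusted p = 0.14), and the rescaled one was called when replicate 1 or replicate 2 was left out. In phl2 P- it ranked 6th of the family, against 0 RPKM in wild type with phosphate. TIP2-1 was at 3.55 and 3.86 RPKM in phl2 P-, or 55.3% of WT P- (adjusted p = 0.051 and 0.79). Its ratio to TIP2-2 was 1.59 and 1.50, against 1.65 and 1.50 in WT P-. NIP5-1 was at 1.33 and 1.54 RPKM, or 48.8% of WT P- (adjusted p = 0.059 and 0.61).

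None of the tested NIPs and SIPs was called in phl2 P- with either scaling. NIP1-1 was at 3.87 and 4.47 RPKM, or 71.0% of WT P-, and NIP1-2 at 1.39 and 1.60 RPKM, or 82.4%. NIP2-1 was at 2.86 and 2.66 RPKM, or 108% of WT P-, and SIP1-2 at 1.21 and 1.40 RPKM, or 101%. SIP1-1, at 1.49 and 1.64 RPKM, and SIP2-1, at 2.57 and 2.90 RPKM, had 45.4% and 57.2%. Among untested members, NIP6-1 was at 0.58 and 0.67 RPKM in phl2 P-, against 0.247 and 0.53 RPKM in WT P-, and PIP2-5 at 0.191 and 0.22 RPKM, against 0.649 and 0.897 RPKM. PIP2-6 and BETA-TIP were listed at 0 in both phl2 columns. The NIP share of the aquaporin sum was 14.1% and 13.6% in phl2 P-, against 9.60% and 11.5% in WT P-, and the PIP2 share 24.1% and 24.6%, against 25.9% and 25.4%. The whole family summed to 74.0 and 83.8 RPKM in phl2 P-, against 150 and 127 RPKM in WT P-, or 0.218% and 0.231% of all RPKM, against 0.288% and 0.262%.

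Of the aquaporin regulators, 3 of 8 were called lower in phl2 P- as deposited and 0 after rescaling, against 19.5% and 0.0174% of all tested genes, with medians of -0.50 and -0.07. They were the receptor kinases BAK1 and QSK1 and the transcription factor HRA1, at -0.83, -0.69 and -0.65 as deposited (adjusted p = 0.042, 0.047 and 0.048). HRA1 was tested only through WT P-, with 0.33 and 0.273 RPKM in phl2 P- and 1.02 and 1.05 RPKM in WT P-. BAK1, at 0.748 and 0.864 RPKM in phl2 P-, was tested only through its wild-type values. None of the 3 tested boron exporters and none of the 3 tested low-oxygen genes was called in phl2 P- with either scaling by limma. Of the 5 shoot photosynthesis markers, 4 were called lower in phl2 P- as deposited and 0 after rescaling, against those same shares of all tested genes. Their median difference was -1.16 as deposited and still -0.74 after rescaling. Among those called, RBCS1A, LHCB1.1 and RCA were below 1 RPKM in both phl2 columns and were tested only through wild-type values.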

How the data were processed

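The authors deposited 1 table of RPKM values for 6 columns, per the file headers. TopHat2, DESeq2 and the build TAIR10 are named without version or role, per the submitters' processing notes. How reads were counted, with which strand setting, and which reads the values are divided by is not given in the sources used here. The worth of 1 read was taken from low values of genes with 1 annotated transcript, with exonic lengths of another annotation release (RefSeq, TAIR10.1). Only 38.2% to 40.9% of low values lay within 0.1 read of a whole number, so read numbers are approximate and no count test was run.

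The members and gene lists were chosen with earlier results of these data known. Tested genes reached 1 RPKM in no fewer than 2 columns. limma 3.58.1 in R 4.3.3 fitted log2(RPKM + 1), a pseudocount of 1, with 1 mean per group over 5 samples (phl2 columns averaged, 2 residual degrees of freedom) and trended variances, two-sided, with Benjamini-Hochberg adjustment over all 11463 genes and calls at an adjusted p under 0.05. Log2 differences on this scale understate changes of low genes, and errors are limma standard errors. The model was tested on simulated data. Rescaling divided libraries by factors of 0.994, 0.831, 1.36, 1.22 and 0.775 (replicates 1 to 4 and phl2). Values are given in full for members called in either comparison with either scaling, the 6 highest members and the NIPs of known nutrient or stress roles. All 35 members matched the RefSeq annotation, which supplied coordinates and sequences on TAIR10.1, and coding sequences were aligned end-gap free. Alternatives were quantile normalization, scaling on genes without opposite-strand exons, a pseudocount of 0.1, no filter, no variance trend, both phl2 columns as replicates, and leaving out each column, as deposited and rescaled.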

Additional observations from a re-analysis of the deposited data

How the results depend on the processing

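No paired analysis was possible because each replicate number occurs in 1 group only. Of the members called as deposited in WT P- against WT P+, 6 were higher and 6 lower. The number higher was 3 after median-of-ratios rescaling, 2 with scaling on genes without opposite-strand exons, 4 with quantile normalization and 2 with no filter, and 2 to 7 over the fits that left out 1 column, as deposited or rescaled. The number lower was 12, 12, 9 and 0 under those 4 settings, 13 with both phl2 columns as replicates and rescaling, and 3 to 13 over the fits that left out 1 column. Without a filter 24207 genes were tested and limma's prior degrees of freedom were 1.78, against 6.34. Over all 11463 tested genes, 3210 were called higher and 510 lower as deposited. Those higher were 928 after median-of-ratios rescaling, 813 with scaling on genes without opposite-strand exons and 1086 with quantile normalization. Those lower were 1342, 1485 and 1193, and 2085 with both phl2 columns and rescaling. With no filter 221 were higher and 57 lower. In phl2 P- against WT P-, the 11 members lower as deposited became 0 with each of these scalings, with a pseudocount of 0.1 and with no filter, 19 with both phl2 columns as replicates, 4 with both and rescaling, and 0 to 19 with 1 column left out. The 0 higher became 3 with both columns and rescaling, and was 0 to 1 with 1 column left out. Over all tested genes, 2230 were lower in phl2 P- as deposited and 2 after either median-of-ratios scaling. With quantile normalization 5 were lower, with a pseudocount of 0.1 30, and with no filter 0. With both phl2 columns as replicates 7448 were lower, and with both and rescaling 1000 were lower and 1384 higher. The cause of these moves was not tested.

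TIP1-3, TIP2-1, TIP2-2, TIP2-3 and PIP2-3 kept their deficiency calls in all 6 fits that left out 1 column, with either scaling. In each of these fits TIP1-3, listed at 0 in WT P+, was tested only through its levels without phosphate. The phl2 difference of PIP1-2, lower as deposited, was 0.024 after rescaling, 0.089 with scaling on genes without opposite-strand exons, and 0.030 with both phl2 columns and rescaling. After rescaling it was 0.026, 0.028, 0.033, 0.037 and 0.018 without replicate 1, 2, 3, 5 and 6, and -0.039 without replicate 4. That of NIP1-2 was 0.28 and called with both phl2 columns and rescaling. The deficiency difference of SIP2-1 was -0.48 and called after rescaling without replicate 1, against -0.48 to 0.02 over all rescaled fits with 1 column left out.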
